A study of Rattus norvegicus with 28 samples.

Results

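Unstimulated primary rat microglia were compared with unstimulated primary rat astrocyte cultures, using all 6 vehicle libraries of microglia and all 8 vehicle libraries of astrocytes among the 28 libraries of the series. The members were chosen by their labels alone: every library given a vehicle, either buffer (3 microglial and 4 astrocyte libraries) or H2O (3 and 4), and every gene symbol listed in all 14 of their tables, which left 15009 of the 28459 symbols listed in any of them. All cells came from cortices of Wistar rats at postnatal day 1 that were kept for 10 days in flasks. Microglia were shaken off the flasks and purified with magnetic beads against CD11b/c, the surface integrins that the beads bind, so the level of Itgam (CD11b) was also selected by the sort. How the astrocytes were separated is not stated in the labels. Vehicle was added 1 day after isolation to microglia and 3 days after isolation to astrocytes, in medium with 10% fetal calf serum, so the time in culture differed between the cell types. None of the 14 libraries received HERV-W ENV (a retroviral envelope protein) or LPS (lipopolysaccharide, a bacterial wall component), which the series set against buffer and H2O respectively.

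Microglia are the resident macrophages of the brain. They derive from the yolk sac, depend on the receptor CSF1R for survival, and carry receptors for microbial products, complement, antibodies and nucleotides. Astrocytes derive from the neural tube, take up glutamate and potassium, are coupled by gap junctions and secrete growth factors and matrix. Inflammatory signals pass between them in culture and in tissue: microglial interleukin 1 and tumour necrosis factor act on receptors of astrocytes, and astrocytic CSF1 and interleukin 34 act on microglia. Neonatal glial cultures in serum are known to hold some cells of other kinds and to differ from glia in the brain.

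Library totals were 26513999 to 42724111 counts in microglia and 24155919 to 35326938 in astrocyte cultures, and 89.6% to 92.3% and 93.1% to 93.4% of them fell on the shared symbols. Levels are given as CPM, counts scaled to a total of 1000000 on the shared symbols. A count of 0 allowed up to 0.0767 to 0.133 CPM in a library (3 counts, counting error only). The 2 cell types were deposited with different gene tables: 23139 genes for microglia, of which 5345 were at 0 in every microglial library, and 20268 and 20056 genes for the astrocyte buffer and H2O sets, with no gene at 0 in all libraries of a set (vehicle and stimulated together). Genes at 0 in all libraries of an astrocyte set, stimulated ones included, are thus missing from the comparison, and cell type, gene table and library set cannot be told apart here. Genes present in astrocytes are missing too: 5259 and 5047 symbols of the astrocyte buffer and H2O sets were not shared by all 14 libraries. Hspg2 (356 to 1679 CPM of all listed genes) and Timp2 (750 to 1124 CPM), named after their values were seen, were listed for astrocytes alone. Some genes that all cells need also differed widely: Eef1a1, the translation elongation factor, was at 6827 to 9164 CPM (median 8434) in microglia and at 0.527 to 2.01 CPM (median 1.22) in astrocyte cultures. Of 59 ribosomal protein genes tested, 55 were called higher and 1 lower in microglia, with a median log2 difference of 1.12. At least 8-fold higher were 4: Rpl8 (log2 5.32) and the copy or paralogue symbols Rpl31l4 (5.18), Rpl10l (4.59) and Rps18l1 (3.64). At least 8-fold lower was 1, Rps27a (log2 -4.47). For a single gene, a difference between cells and a difference between the tables cannot be told apart. The first principal component held 86.8% of the variance and separated the cell types. The second held 6.7% and set microglial H2O libraries 1 and 2 apart from the other 4 microglial libraries.

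Log2 differences are microglia minus astrocytes from the edgeR quasi-likelihood test with TMM scaling, with their standard error. A call means an adjusted p (Benjamini-Hochberg over all genes tested) under 0.05. Of 12868 genes tested, 4912 (38.2%) were called higher and 5184 (40.3%) lower in microglia, so 78.5% of all genes differed and a call alone is common background. The counts of called members in each list below are to be read beside these shares. At least 4-fold differences were rarer, with 1304 genes (10.1%) higher and 2613 (20.3%) lower in microglia. The median log2 difference of all genes was -0.03. The split depended on the scaling: with library totals alone and no TMM, 3156 genes were called higher and 6989 lower, 31.1% of calls in place of 48.7%, and the median of all genes was -0.46. TMM raised microglial levels relative to the CPM given here (factors 0.788 to 0.907 in microglia and 1.07 to 1.18 in astrocytes), so a log2 difference is not the log2 ratio of the CPM values beside it. In bulk RNA, fewer cells of a type and less RNA per cell cannot be told apart.

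The marker genes of the 2 labels separated the libraries without overlap, as did 27.7% of all genes tested on the microglial side and 31.9% on the astrocyte side. Aif1, the calcium-binding protein IBA1 of microglia, was at 545 to 1139 CPM (median 629) in microglia and at 8.19 to 56.7 CPM (median 33.4) in astrocyte cultures, log2 difference 4.84 ± 0.40 (SE), adjusted p = 4.33e-08. Csf1r, the receptor on which microglia depend, was at 1899.8 to 3234 CPM (median 2606) and 19.4 to 213 CPM (median 108), log2 difference 4.95 ± 0.45 (SE), adjusted p = 1.05e-07. Itgam was at 305 to 488 CPM (median 375) and 6.63 to 49.1 CPM (median 30.8), log2 difference 4.13 ± 0.39 (SE), adjusted p = 1.53e-07. All 6 microglial libraries lay above all 8 astrocyte libraries for these genes, and the spread was wider among the astrocyte cultures, where the lowest library was buffer 2 for each of the 3 genes. On the astrocyte side, Gfap, the intermediate filament of astrocytes, was at 3144 to 6906 CPM (median 5809.7) in astrocyte cultures and at 0.164 to 44.2 CPM (median 10.6) in microglia, log2 difference -8.13 ± 1.15 (SE), adjusted p = 1.25e-05. Aqp4, the water channel of astrocyte endfeet, was at 533 to 1181 CPM (median 1046) and 0.0376 to 0.609 CPM (median 0.275), log2 difference -11.24 ± 0.51 (SE), adjusted p = 6.74e-11. Slc1a3, the glutamate transporter GLAST, was less exclusive, at 939 to 1839 CPM (median 1033) in astrocyte cultures and still 65.4 to 296 CPM (median 214) in microglia, log2 difference -2.28 ± 0.33 (SE), adjusted p = 1.43e-05.

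**Figure D1:**
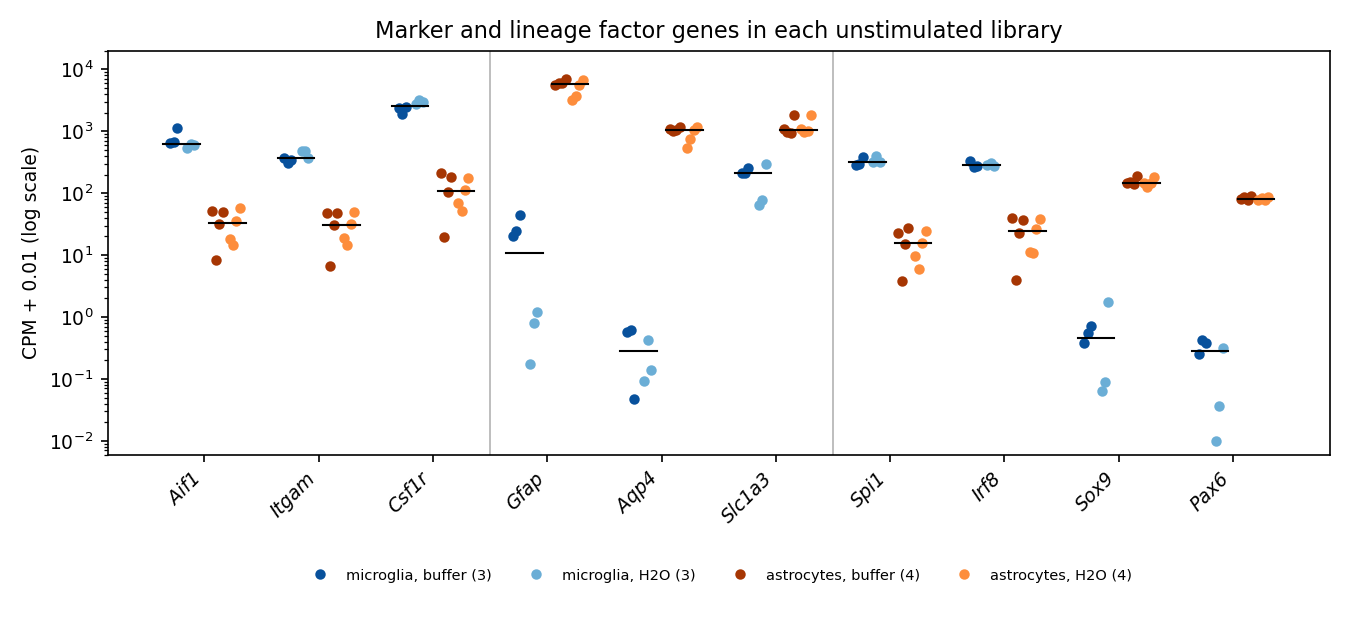
Levels of label markers and lineage factors in each library (points; vertical axis CPM plus 0.01 on a log scale; bars are medians of 6 microglial and 8 astrocyte libraries). Microglial genes lie higher in all microglial libraries and astrocytic genes in all astrocyte libraries, and Gfap within microglia lies at 20.1 to 44.2 CPM in buffer and 0.164 to 1.18 CPM in H2O libraries.

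Across the marker lists the same separation held with a few members against it. Of 24 microglial markers tested, 22 were called higher and 1 lower in microglia, with a median log2 difference of 4.89, among them Trem2, a lipid receptor of microglia (log2 6.73 ± 0.51), Cd68, a lysosomal membrane protein (log2 6.87 ± 0.38), and P2ry12, the ADP receptor (log2 4.44 ± 0.40). The member that went the other way was Olfml3, a secreted olfactomedin-domain protein, at 0.0791 to 1.304 CPM (median 0.2895) in microglia and 49.3 to 94.8 CPM (median 67.2) in astrocyte cultures (log2 -6.83 ± 0.54). Tmem119 was at 5.90 to 50.7 CPM in microglia and at most 39.3 CPM in astrocyte cultures and was not called (adjusted p = 0.0651). Siglech was at 0 in all 6 microglial libraries. These 2 genes, both known as markers of microglia in the adult brain, were named after their values were seen. Cx3cr1, the fractalkine receptor, overlapped between the cell types at 30.4 to 361 CPM (median 159) and 8.72 to 99.2 CPM (median 55.1), log2 difference 2.07 ± 0.55 (SE), adjusted p = 0.0029. With the H2O libraries alone its adjusted p was 0.0767. Of 22 astrocyte markers tested, 20 were called lower and 1 higher in microglia, with a median log2 difference of -6.12 (-5.79 with the 2 members at 0 in microglia set to their bounds). Mlc1, a membrane protein of astrocyte endfeet, was at 721 to 1956 CPM (median 1410.5) in astrocyte cultures and 0 to 0.695 CPM (median 0.152) in microglia. Gja1, the gap junction protein connexin 43, was at 295 to 449.8 CPM (median 332) and 0.438 to 1.71 CPM (median 1.18). Gjb6 (connexin 30) and Slco1c1 (a thyroxine transporter) were at 0 counts in all microglial libraries, which put astrocyte cultures at least 41.4-fold and at least 86.7-fold higher over a floor of 3 counts in the pooled microglial libraries. The astrocyte list's member called higher in microglia was Ppp1r3c, a glycogen regulator (log2 1.16 ± 0.16).

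Markers of other cells were present on both sides. Summed perivascular macrophage markers were 2785 to 4649 CPM in microglia and 24.5 to 199 CPM in astrocyte cultures, and all 6 members tested were called higher in microglia, led by Mrc1, the mannose receptor CD206, at 676 to 1516 CPM (median 1107) against 1.21 to 31.3 CPM (median 5.69) (log2 7.36 ± 0.66). Cd163 of the same list was at 0 to 0.378 CPM in microglia, as CPM of all listed genes, and was listed in the microglial table alone. Lyve1 was listed for astrocytes alone, at 0.212 to 10.6 CPM of all listed genes, so its microglial level is not known. F13a1 and Clec10a were too low to test. Fibroblast and mural cell markers summed to 3165 to 12391 CPM in astrocyte cultures and to 12.8 to 39.9 CPM in microglia, and 9 of 10 members tested were called lower in microglia with none higher. Acta2, the actin of smooth muscle, was at 161 to 3502 CPM (median 1737) in astrocyte cultures, with buffer 4 and H2O 4 the lowest libraries. Tagln, an actin-binding protein, was at 1316 to 5315 CPM (median 3299). In astrocyte buffer 2, where the sum was 12391 CPM, Tagln held 4759 CPM, Acta2 3502 CPM and the collagen gene Col1a2 1873 CPM. The 6 other shared members, Dcn, Lum, Rgs5, Des, Kcnj8 and Abcc9, were too low to test. Rgs5, a pericyte marker, reached at most 3.46 CPM in any astrocyte library. Neuronal markers summed to 498 to 933 CPM in astrocyte cultures and 6.25 to 87.9 CPM in microglia, and Stmn2, a tubulin-binding protein of growing neurons, supplied most of this with 326 to 792 CPM (median 627). As a list they did not lie to 1 side: of 11 tested, 3 were called lower and 1 higher in microglia, and 7 were not called. Their median log2 difference was -0.27, and the member called higher was Syp (log2 1.72 ± 0.26). The transporter gene Slc17a6 was at 0 in microglia and at most 0.148 CPM in astrocyte cultures. Endothelial markers summed to 52.4 to 114 CPM in microglia and 16.1 to 27.1 CPM in astrocyte cultures, with 5 of 7 called higher in microglia, among them Pecam1 (log2 3.97 ± 0.60) and Flt1 (log2 4.59 ± 0.66). The other 2, Egfl7 (log2 -1.37 ± 0.22) and Vwf (log2 -0.93 ± 0.21), the latter named after its value was seen, were called lower. Ocln of the same list is not in these sums, because it was listed for astrocytes alone. It was at 68.4 to 105 CPM in astrocyte cultures, as CPM of all listed genes, and was named after its value was seen. Oligodendrocyte lineage markers summed to 254 to 754 CPM in microglia and 297 to 589 CPM in astrocyte cultures, and Myrf, a transcription factor of that lineage, was higher in microglia at 111 to 228 CPM (median 152) against 8.54 to 18.2 CPM (median 9.96) (log2 4.26 ± 0.23). Ependymal and choroid plexus markers summed to at most 31.4 CPM and lymphocyte markers to at most 80.8 CPM in any library, and Cd79b, a B cell receptor chain, supplied most of the latter in microglia at 9.49 to 76.5 CPM (median 18.3). The granulocyte and monocyte list had 1 member tested, Csf3r, at 67.7 to 123 CPM (median 100.2) in microglia and 1.895 to 14.5 CPM (median 8.46) in astrocyte cultures. Each result below was measured in cultures with these other transcripts present, and their part in it was not tested.

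Most lineage transcription factors tested were higher in the cell type they are known for. Of 17 microglial factors tested, 14 were called higher and 1 lower in microglia (median log2 3.90). Spi1, which encodes PU.1, the factor that sets the myeloid lineage, was at 284 to 399 CPM (median 319) in microglia and 3.83 to 27.6 CPM (median 15.5) in astrocyte cultures (log2 4.87 ± 0.39). Irf8, a partner of PU.1, was at 262 to 326 CPM (median 280.4) and 3.94 to 38.997 CPM (median 24.5) (log2 4.06 ± 0.41), and Tfec was higher by log2 5.59 ± 0.34. Sall1, a factor of microglial identity in the brain, was the exception, at 23.8 to 52.9 CPM (median 49.02) in microglia and 124 to 148 CPM (median 133) in astrocyte cultures (log2 -1.18 ± 0.14). All 19 astrocytic factors tested were called lower in microglia (median log2 -5.01). Sox9, which drives gliogenesis, was at 125 to 186 CPM (median 145) in astrocyte cultures and 0.0548 to 1.74 CPM (median 0.4501) in microglia (log2 -7.57 ± 0.55), Pax6 at 77.8 to 88.6 CPM (median 81.9) and 0 to 0.418 CPM (median 0.276), and the Hedgehog effectors Gli3 and Gli2 at 75.98 to 111 CPM (median 103) and 21.4 to 29.2 CPM (median 25.5) in astrocyte cultures and at most 0.342 and 0.0767 CPM in microglia.

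PU.1 is known to bind purine-rich sites with the core GAGGAAG, and the 250 bases before the annotated start of 3 genes high in microglia and 2 high in astrocyte cultures are shown for where these letters stand. The sequences are RefSeq promoter windows of the rat assembly GRCr8, a later assembly than the one named for the files, written 5′ to 3′ on the gene's strand, with matches to GAGGAAG or its reverse complement CTTCCTC in capitals. Fcgr3a encodes an Fc receptor for antibodies (log2 4.71 ± 0.42), Laptm5 a lysosomal protein of blood cells (log2 5.48 ± 0.38) and Tlr4 the LPS receptor (log2 4.71 ± 0.29). These 5 were chosen after their values and windows were seen.
Fcgr3a (chr13:85782386-85782635, plus strand): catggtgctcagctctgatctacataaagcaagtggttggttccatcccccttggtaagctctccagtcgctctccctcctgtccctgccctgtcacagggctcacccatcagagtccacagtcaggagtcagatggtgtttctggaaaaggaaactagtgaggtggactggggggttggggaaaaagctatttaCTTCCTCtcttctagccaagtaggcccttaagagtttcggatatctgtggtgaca
Laptm5 (chr5:148371630-148371879, plus strand): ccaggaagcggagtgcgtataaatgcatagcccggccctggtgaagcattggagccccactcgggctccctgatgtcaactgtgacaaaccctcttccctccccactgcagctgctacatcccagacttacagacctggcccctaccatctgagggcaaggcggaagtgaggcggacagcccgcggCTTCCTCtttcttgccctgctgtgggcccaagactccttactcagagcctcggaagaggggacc
Tlr4 (chr5:85160997-85161246, plus strand): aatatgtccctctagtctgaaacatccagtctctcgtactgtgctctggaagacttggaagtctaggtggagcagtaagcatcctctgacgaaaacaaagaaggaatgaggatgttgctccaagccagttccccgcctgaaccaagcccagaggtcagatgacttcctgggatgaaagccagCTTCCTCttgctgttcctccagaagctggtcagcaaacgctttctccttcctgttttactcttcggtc
Gfap (chr10:88361662-88361911, minus strand): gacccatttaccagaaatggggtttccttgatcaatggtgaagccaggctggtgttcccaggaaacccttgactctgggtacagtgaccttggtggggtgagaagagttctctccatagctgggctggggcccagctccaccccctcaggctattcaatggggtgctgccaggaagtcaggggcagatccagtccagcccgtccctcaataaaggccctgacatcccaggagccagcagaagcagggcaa
Slc1a3 (chr2:59557809-59558058, minus strand): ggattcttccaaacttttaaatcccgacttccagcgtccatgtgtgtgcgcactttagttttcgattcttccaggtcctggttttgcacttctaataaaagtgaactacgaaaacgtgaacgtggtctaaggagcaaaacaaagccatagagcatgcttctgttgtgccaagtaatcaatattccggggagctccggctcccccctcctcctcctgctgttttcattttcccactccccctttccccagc
The match began 55 bases before the start in Fcgr3a, 64 in Laptm5 and 68 in Tlr4, and no match stood in the windows of Gfap and Slc1a3. The 7 letters were found on either strand in 10.1% of all 27457 RefSeq rat promoters of this length and in 1140 of the 10367 promoters of genes tested here. They stood in 17.9% of 1000 promoters of genes at least 4-fold higher in microglia and in 10.2% of 1952 promoters of genes at least 4-fold lower. Among the microglial markers 7 of 17 promoters held them, namely those of Itgam, Csf1r, Trem2, Laptm5, Ctss, Cd53 and Fcgr3a, and among the astrocyte markers 2 of 22, those of Gja1 and Kcnj10. The transcription factor lists did not show this order, with 3 of 13 promoters for the microglial factors and 4 of 15 for the astrocytic ones. A match is a description of the sequence and was not tested for binding.

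The largest differences by rule, among genes that averaged 50 CPM or more in the cell type where they were higher, held known cell type genes beside genes with housekeeping roles. On the microglial side these were Crybg2, Eef1a1, Stat6, Fabp4, Tapbp, Cdc42se2, Lilrb3, Impa1, Rbx1 and Gtf2f1. Fabp4, a fatty acid binding protein of macrophages, was at 55.3 to 512 CPM (median 93.5) in microglia, highest in H2O 1 and 2, and at 0 in 5 of 8 astrocyte libraries. Lilrb3, an inhibitory receptor of myeloid cells, was at 52.3 to 260.3 CPM (median 113) against 0 to 0.332 CPM (median 0.0704). Stat6, the factor activated by interleukin 4, was at 166 to 276 CPM (median 245) in microglia and at most 0.148 CPM in astrocyte cultures. Tapbp, the chaperone tapasin of MHC class I, was at 53.2 to 89.6 CPM (median 78.1) and at most 0.152 CPM. Gtf2f1, Rbx1 and Cdc42se2, a general transcription factor, a ubiquitin ligase subunit and an effector of Cdc42, have housekeeping roles in most cells and were still at most 0.240, 0.111 and 0.395 CPM in astrocyte cultures. Crybg2 was at 818 to 1934 CPM (median 1166) in microglia and at most 0.133 CPM in astrocyte cultures. On the astrocyte side the 10 genes were Sostdc1, Ns5atp4, Gemin4, Ier3ip1, Aldh1a1, Cldn19, Chrdl1, Fmod, Col4a6 and Efemp1. Aldh1a1, an enzyme of retinoic acid synthesis, was at 184 to 687 CPM (median 312) in astrocyte cultures and at 0 in 5 of 6 microglial libraries. Chrdl1, an astrocyte-secreted BMP antagonist, was at 517 to 1071 CPM (median 857) against 0 to 0.228 CPM (median 0.03197). Fmod, a matrix proteoglycan, was at 214 to 793 CPM (median 499) and Sostdc1, a secreted antagonist of BMP and Wnt, at 42.6 to 249.8 CPM (median 114). Gemin4, Ier3ip1 and Ns5atp4, which are not known for either cell type, were at 0 in all microglial libraries and at least 4424-fold, 4133-fold and 4905-fold higher in astrocyte cultures over the pooled floor. Both flanking genes of Crybg2 (Zfp683 and Cd52) and of Ier3ip1 (Skor2 and Hdhd2) were listed for microglia alone. Those of Stat6, Cdc42se2, Lilrb3, Gtf2f1, Sostdc1, Cldn19, Chrdl1, Fmod and Efemp1 were listed for both cell types. For each of these genes, cell type and gene table cannot be told apart.

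Sensors of microbial products were mostly microglial. Of 20 genes of the TLR4 complex and its adaptors, 15 were called higher and 2 lower in microglia (median log2 2.27, against -0.03 for all genes). Tlr4 was at 48.5 to 99.5 CPM (median 89.1) in microglia and 1.74 to 6.85 CPM (median 4.02) in astrocyte cultures, log2 difference 4.71 ± 0.29 (SE), adjusted p = 1.54e-09. Its co-receptor Cd14, which hands LPS to the complex, was at 266 to 534 CPM (median 452) and 8.68 to 35.4 CPM (median 19.5) (log2 4.73 ± 0.29). Ly96, the LPS-binding subunit MD-2, was at 86.6 to 113 CPM (median 97.8) and 1.895 to 4.14 CPM (median 2.62) (log2 5.58 ± 0.17). For all 3 the lowest microglial library lay above the highest astrocyte library, and Tlr4 was lowest among microglia in buffer 3. The signalling adaptor Myd88 differed less, at 107 to 190.2 CPM (median 125) against 24.97 to 42.5 CPM (median 34.2) (log2 2.41 ± 0.17), and Traf3 was lower in microglia (log2 -0.88 ± 0.15). Lbp, the serum protein that carries LPS, was at 0 in microglia and 0.0376 to 1.201 CPM (median 0.592) in astrocyte cultures, at least 41.4-fold higher over the pooled floor. Cd180 and Ly86, which form a relative of the TLR4 complex, were higher in microglia by log2 5.70 ± 0.49 and 5.00 ± 0.39. Tab1, an adaptor of the kinase TAK1 used by most cells, was at 28.8 to 46.8 CPM (median 39.9) in microglia and at 0 in 7 of 8 astrocyte libraries.

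Of 21 other pattern receptors and their partners, 19 were called higher in microglia and none lower (median log2 3.40). Tlr7, which like Tlr8 senses RNA, was at 209.7 to 302 CPM (median 261) in microglia against 1.33 to 14.4 CPM (median 7.35) in astrocyte cultures. Tlr8 was at 152 to 366 CPM (median 251) and 1.52 to 10.01 CPM (median 5.16). Tlr2, which senses bacterial lipopeptides, was at 362 to 574 CPM (median 428) against 4.93 to 23.3 CPM (median 15.1) (log2 5.30 ± 0.32). Nod2, a cytosolic peptidoglycan sensor, was at 6.06 to 17.7 CPM (median 11.5) against 0.0379 to 1.11 CPM (median 0.484). The 2 members that did not pass were Clec7a, at 6.83 to 26.2 CPM in microglia and 1.82 to 25.01 CPM in astrocyte cultures, and Cgas, at medians of 6.85 and 9.75 CPM. Slc1a5 and Slc1a4, neutral amino acid transporters whose human counterparts are receptors of the HERV-W envelope protein syncytin-1, were present in both cell types. Slc1a5 was at 25.9 to 41.7 CPM (median 35.3) in microglia and 23.4 to 37.7 CPM (median 25.3) in astrocyte cultures, overlapping ranges with log2 0.73 ± 0.13 under TMM and 0.30 without it (adjusted p = 0.0686). Slc1a4 was higher in astrocyte cultures, at 68.3 to 108 CPM (median 79.7) against 8.06 to 28.1 CPM (median 16.2) (log2 -1.92 ± 0.22).

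**Figure D2:**
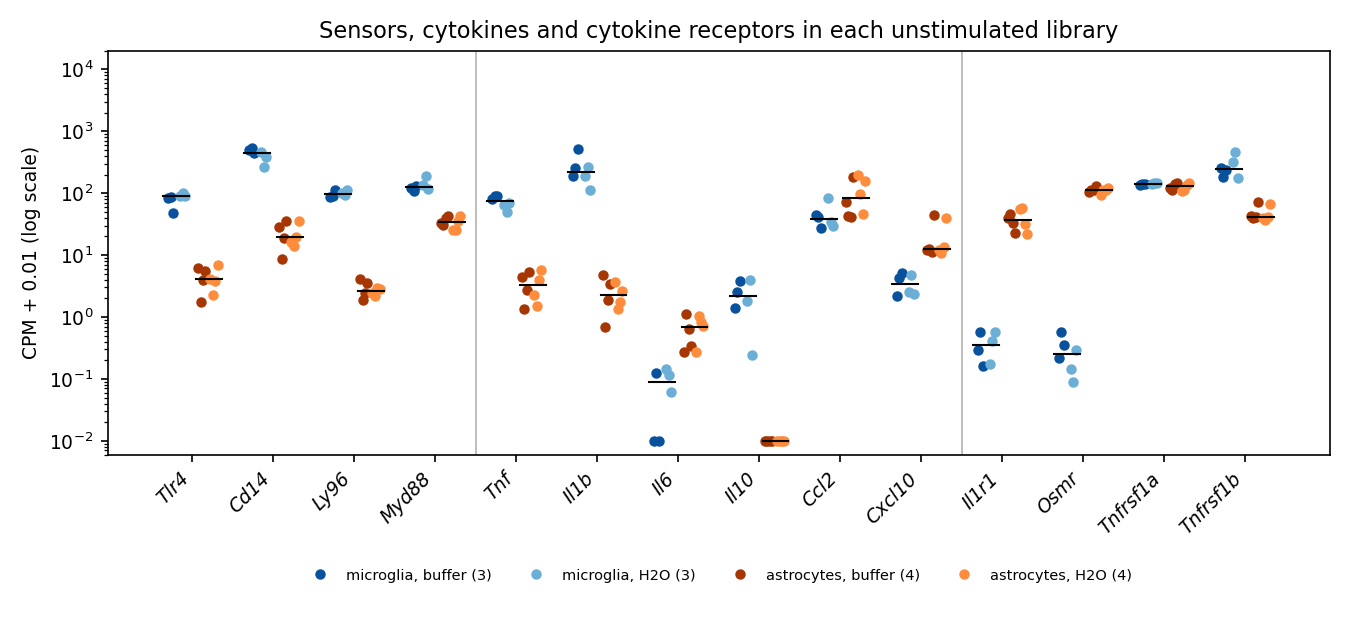
Levels of TLR4 complex genes, cytokines, chemokines and cytokine receptors in each library (points; vertical axis CPM plus 0.01 on a log scale; bars are medians of 6 microglial and 8 astrocyte libraries). Tlr4, Cd14, Ly96, Tnf and Il1b are higher in every microglial library, Il1r1 and Osmr in every astrocyte library, and Ccl2 overlaps.

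Cytokine transcripts divided between the cell types. Of 28 cytokines tested, 16 were called higher and 10 lower in microglia (median log2 1.89), and 12 more of the shared symbols were too low to test. Beside 38.2% and 40.3% of all genes, the count of cytokines called lower lies near the background. Il1b was at 113 to 525 CPM (median 224) in microglia and 0.682 to 4.69 CPM (median 2.23) in astrocyte cultures, log2 difference 7.10 ± 0.45 (SE), adjusted p = 2.24e-09. Il1a was at 13.4 to 40.03 CPM (median 24.9) and 0.265 to 1.44 CPM (median 0.649). Tnf was at 49.3 to 91.6 CPM (median 75.4) and 1.33 to 5.69 CPM (median 3.32), log2 difference 4.88 ± 0.31 (SE), adjusted p = 2.26e-09. These transcripts were present in every microglial library without LPS or ENV, and the highest Il1b level stood in buffer 3. Ebi3, a subunit of interleukins 27 and 35, was at 145 to 348 CPM (median 239) against 1.25 to 2.99 CPM (median 1.59) (log2 7.61 ± 0.30), and Spp1, the cytokine osteopontin, reached 3209.6 to 8174 CPM (median 5857) against 34.3 to 117 CPM (median 83.8). Osm, oncostatin M, was at 9.44 to 16.97 CPM (median 13.1) against 0.0379 to 1.33 CPM (median 0.334) and Il18 at 75.5 to 161 CPM (median 87.6) against 2.77 to 9.55 CPM (median 5.65). Il10, an anti-inflammatory cytokine, was too low for the test, at 0.2301 to 4.01 CPM (median 2.16) in microglia and at 0 in all 8 astrocyte libraries, at least 156-fold higher over the pooled floor. Il6 was near the floor in both, at 0 to 0.137 CPM in microglia, with 2 libraries at 0, and at 0.259 to 1.10 CPM in astrocyte cultures.

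Cytokines higher in astrocyte cultures included both ligands of CSF1R and members of the TGF-beta and interleukin 6 families. Csf1, the ligand of CSF1R, was at 337 to 569 CPM (median 435) in astrocyte cultures and 57.7 to 134 CPM (median 74.03) in microglia (log2 -1.97 ± 0.20). Il34, its second ligand, was at 5.604 to 22.9 CPM (median 15.7) in astrocyte cultures and summed to 3 counts over all microglial libraries, a pooled ratio of 938 with a counting interval of 321 to 4549. Tgfb2 and Tgfb3 were at 60.6 to 174 CPM (median 121) and 54.7 to 332 CPM (median 207) in astrocyte cultures against 0.1096 to 4.49 CPM (median 1.73) and 0.451 to 1.21 CPM (median 0.815) in microglia. Tgfb1 was microglial at 272 to 500.3 CPM (median 376) against 26.04 to 47.3 CPM (median 37.9) (log2 3.85 ± 0.19). Lif, of the interleukin 6 family, was at 21.1 to 42.7 CPM (median 24.9) against 0.263 to 0.588 CPM (median 0.389). Il33, an alarmin, did not differ beyond its spread, at 4.81 to 13.5 CPM (median 7.82) and 5.45 to 24.2 CPM (median 9.69) (log2 -0.08 ± 0.35, adjusted p = 0.843).

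Astrocyte cultures held transcripts of microglial markers, so the level of each sensor and cytokine there was also set beside the level of microglial markers in the same library. The median of the 24 microglial markers, as a percentage of the mean microglial CPM, ran from 1.06% in buffer 2 to 7.67% in H2O 4 over the 8 astrocyte libraries (median of libraries 4.46%). Tlr4 stood at 2.09% to 8.23% of its microglial mean and lay between the quartiles of the markers in 6 of 8 libraries and above them in buffer 2 and H2O 1. Cd14, at 2.01% to 8.20%, and Tnf, at 1.79% to 7.66%, lay between the quartiles in 7 of 8 libraries each, and Tlr2 in 8 of 8. In buffer 2, the library with the lowest marker median, Cd14 and Tnf lay above the upper quartile of 1.52%. Ly96, at 1.91% to 4.17%, was below the quartiles in 5 libraries. Il1b, at 0.266% to 1.83%, was below them in all 8. Ccl2, at 96.3% to 462% of its microglial mean, was above them in all 8. Which cells in the astrocyte cultures held the Tlr4, Cd14 and Tnf transcripts was not tested.

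**Figure D3:**
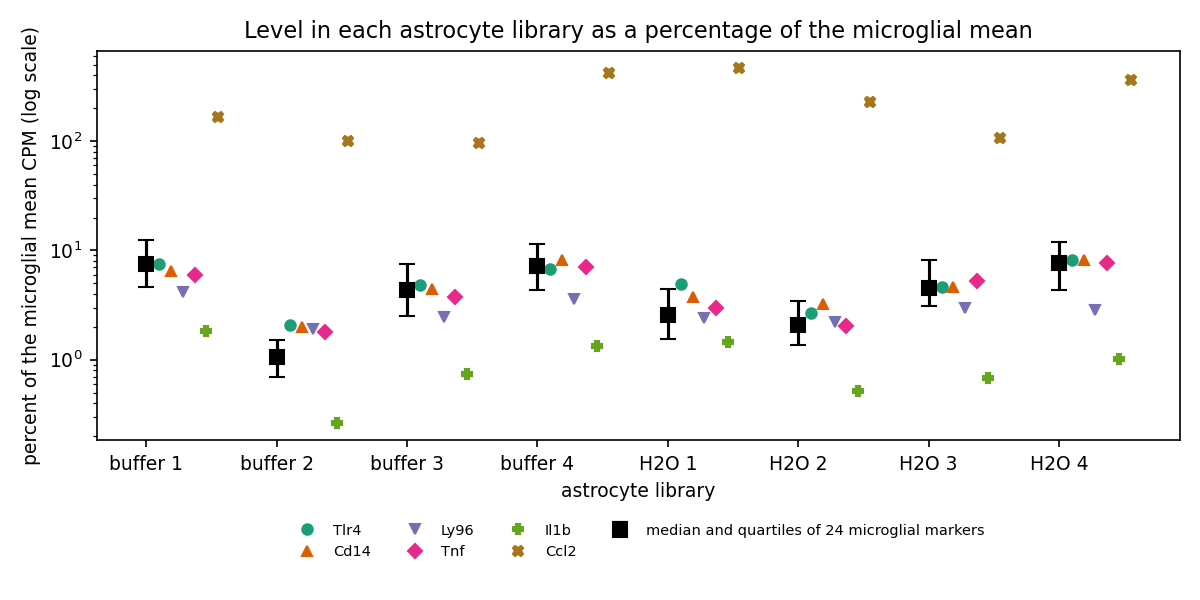
Level in each of the 8 astrocyte libraries as a percentage of the microglial mean CPM (log scale), for the median and quartiles of 24 microglial markers (squares with bars) and for 6 sensor, cytokine and chemokine genes. The marker median runs from 1.06% to 7.67%, Tlr4 from 2.09% to 8.23%, Cd14 from 2.01% to 8.20% and Tnf from 1.79% to 7.66%. In buffer 2 Tlr4, Cd14 and Tnf lie above the marker quartiles. Il1b lies below the quartiles and Ccl2 above them in all 8 libraries.

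Some receptors of cytokines that were higher in microglia were higher in astrocyte cultures. Of 37 cytokine receptors tested, 22 were called higher and 13 lower in microglia (median log2 1.16). Beside 38.2% and 40.3% of all genes, the count of receptors called lower lies near the background. Il1r1, the signalling receptor for interleukin 1, was at 22.2 to 58.6 CPM (median 36.5) in astrocyte cultures and 0.1504 to 0.571 CPM (median 0.341) in microglia, log2 difference -6.31 ± 0.39 (SE), adjusted p = 1.59e-09. Osmr, the oncostatin M receptor, was at 92.6 to 129 CPM (median 113) against 0.0791 to 0.571 CPM (median 0.243) (log2 -8.32 ± 0.27). Its partner Il6st, the shared subunit gp130, was at 254 to 334 CPM (median 300.1) against 46.3 to 79.6 CPM (median 63.3) (log2 -1.80 ± 0.11). Il17rc and Tnfrsf11b, the decoy receptor osteoprotegerin, were also higher in astrocyte cultures, by log2 -6.69 ± 0.40 and -6.58 ± 0.56 as microglia minus astrocytes. The TNF receptors were split in degree: Tnfrsf1b was at 178 to 471 CPM (median 243) in microglia and 36.3 to 70.99 CPM (median 41.6) in astrocyte cultures (log2 2.98 ± 0.25). Tnfrsf1a was alike in CPM at 137 to 148 CPM (median 139) and 107 to 148 CPM (median 129.8), with log2 0.56 ± 0.08 under TMM and 0.13 without it (adjusted p = 0.175). Il10ra, the ligand-binding chain of the interleukin 10 receptor, was microglial at 114 to 174 CPM (median 135) against 2.05 to 7.83 CPM (median 4.79). Il10rb, its partner in most cells, was at 23.04 to 37.8 CPM (median 35.3) in microglia and at 0 in all 8 astrocyte libraries, at least 2364-fold higher over the pooled floor. As for Eef1a1, Stat6, Tapbp and Tab1, cell type and gene table cannot be told apart for this gene. Il6r was at 109.7 to 195 CPM (median 144) against 12.2 to 29.05 CPM (median 17.3). The interferon receptors were present in both: Ifnar1 at 236 to 363 CPM (median 302) and 141 to 314 CPM (median 181) (log2 0.99 ± 0.18). Ifngr1 was at 249 to 513 CPM (median 319.8) and 54.99 to 89.96 CPM (median 69.3) (log2 2.77 ± 0.18).

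Chemokines were found on both sides. Of 21 tested, 7 were called higher and 10 lower in microglia (median log2 -0.81). Over all genes tested 38.2% were called higher and 40.3% lower, so these counts lie near the background. Ccl3, which like Ccl4 attracts monocytes and T cells, was at 149 to 288 CPM (median 201) in microglia against 0.4399 to 2.55 CPM (median 1.299) in astrocyte cultures. Ccl4 was at 40.6 to 88.9 CPM (median 63.04) and 0.417 to 1.29 CPM (median 0.708). Pf4 was at 158 to 369.5 CPM (median 271) against 0.7201 to 5.74 CPM (median 4.48). Ccl9 ranged widely among the microglial libraries, from 5.53 to 186 CPM. Cxcl12, the ligand of CXCR4, was at 137 to 362 CPM (median 204) in astrocyte cultures and 0.164 to 0.875 CPM (median 0.408) in microglia (log2 -8.41 ± 0.44). Cxcl14 was at 68.6 to 142 CPM (median 107) against 0.0761 to 1.97 CPM (median 0.744). Cx3cl1, fractalkine, was at 12.96 to 65.8 CPM (median 20.1) against 0.576 to 3.68 CPM (median 2.48). Cxcl10, an interferon-induced chemokine, was at 10.6 to 44.7 CPM (median 12.4) against 2.17 to 5.04 CPM (median 3.405) (log2 -2.03 ± 0.41), with buffer 4 and H2O 4 the highest astrocyte libraries. Ccl2, the monocyte chemoattractant, overlapped at 27.1 to 82.2 CPM (median 37.6) in microglia and 41.4 to 199 CPM (median 84.1) in astrocyte cultures and was not called (log2 -0.81 ± 0.41, adjusted p = 0.0849). It was called lower in microglia by the DESeq2 Wald test (adjusted p = 0.0393), without TMM (0.0125) and on leaving out microglial H2O 1 (0.0189), astrocyte buffer 2 (0.048), astrocyte buffer 3 (0.0467) or microglial H2O 1 and 2 together (0.0311). Of 11 chemokine receptors tested, 5 were called higher and 4 lower in microglia, also near the shares of all genes. Ackr3 was at 2.92 to 5.37 CPM (median 4.45) in astrocyte cultures against 0 to 0.951 CPM (median 0.629) in microglia, and Cxcr4 was in both at 25.9 to 70.2 CPM (median 35.97) and 43.2 to 60.9 CPM (median 51.5) (adjusted p = 0.492).

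Ligands and receptors were then read together over 35 known pairs, of which 30 had both genes tested. In 6 pairs the ligand was called higher in astrocyte cultures and the receptor in microglia: Csf1 and Il34 with Csf1r, Cx3cl1 with Cx3cr1, Gas6 with Mertk, Tgfb2 with Tgfbr2 and Cd200 with Cd200r1. In another 6 the ligand was higher in microglia and the receptor in astrocyte cultures: Il1a and Il1b with Il1r1, Osm with Osmr, Igf1 with Igf1r, Pdgfb with Pdgfrb and Spp1 with Cd44. In 9 pairs both were higher in microglia, such as Tnf with Tnfrsf1b, Tgfb1 with Tgfbr1 and C3 with C3ar1, and in 5 both were higher in astrocyte cultures, such as Cxcl12 with Ackr3, Lif with Lifr and Bdnf with Ntrk2. With 78.5% of all genes called, most pairs had to fall in one of these classes, and Csf1r and Il1r1 each count in 2 pairs. The sizes differed. Igf1, insulin-like growth factor 1, was at 324 to 1269 CPM (median 1028) in microglia and 3.26 to 24.3 CPM (median 8.76) in astrocyte cultures (log2 6.65 ± 0.53), while its receptor Igf1r differed by log2 -0.78 ± 0.19. Cd200r1, an inhibitory receptor of myeloid cells, was at 106 to 246 CPM (median 160.2) against 0.644 to 6.72 CPM (median 4.399). Its ligand Cd200 was low in both at 0.237 to 3.4995 CPM (median 1.33) and 4.09 to 8.39 CPM (median 6.38). Gas6, the bridge between dying cells and TAM receptors, was at 734 to 1439 CPM (median 1046) in astrocyte cultures and 441 to 569.9 CPM (median 477) in microglia (log2 -0.69 ± 0.15). In the H2O libraries alone Gas6 was at log2 -0.50 and not called (adjusted p = 0.108), so its pair with Mertk rests on the fit over both vehicles. Among its receptors, Mertk was microglial at 127 to 239 CPM (median 180.4) against 29.99 to 70.2 CPM (median 32.7), Axl astrocytic at 450.0 to 844 CPM (median 529.5) against 199 to 300.5 CPM (median 258) and Tyro3 astrocytic at 182 to 276 CPM (median 224) against 11.6 to 14.99 CPM (median 12.98). Pdgfb was at 11.7 to 43.1 CPM (median 28.9) and 7.72 to 27.9 CPM (median 18.4) (adjusted p = 0.0139), and was not called without TMM (adjusted p = 0.103), in the buffer libraries alone (0.0595) or in the H2O libraries alone (0.142). With the replicate number as a block it was at log2 0.72 and not called (adjusted p = 0.0757), nor was it with buffer and H2O summed by number (0.077).

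**Figure D4:**
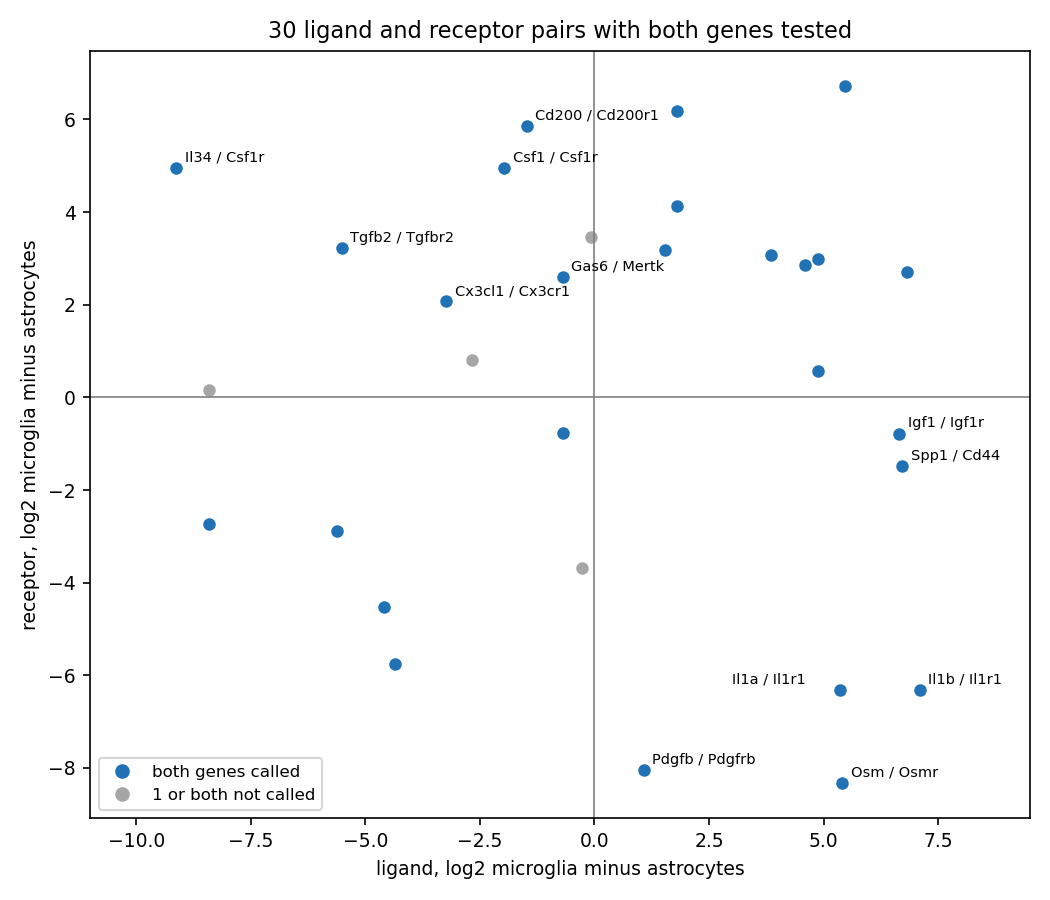
Log2 difference (microglia minus astrocytes) of the ligand on the horizontal axis and of its receptor on the vertical axis for the 30 pairs with both genes tested; pairs named are those whose ligand and receptor were called in opposite directions. Ligands of astrocyte cultures with microglial receptors lie at upper left (6 pairs) and the reverse at lower right (6 pairs).

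Most effector genes of macrophages tested were higher in microglia. Of 30 phagocytic and Fc receptors tested, 24 were called higher and 4 lower (median log2 4.80). Fcer1g, an adaptor that signals for Fc receptors as Tyrobp does for TREM2, was at 1816 to 2603 CPM (median 2104) in microglia against 6.22 to 57.6 CPM (median 32.4) in astrocyte cultures. Tyrobp was at 622 to 1181 CPM (median 866) and 3.22 to 29.8 CPM (median 17.5). Siglec1, a sialic acid receptor, was at 72.1 to 316 CPM (median 141) against 0.417 to 2.62 CPM (median 1.46). Lilrb4 was at 195 to 344 CPM (median 291) against 0.985 to 6.35 CPM (median 3.46). Megf10, the engulfment receptor of astrocytes, was the large exception at 488 to 785 CPM (median 548) in astrocyte cultures and 0.0274 to 0.761 CPM (median 0.232) in microglia (log2 -10.38 ± 0.46), and Itgav, an integrin chain, was also lower in microglia (log2 -1.06 ± 0.12). Sirpa, the receptor of the signal CD47, was at 1153 to 1757 CPM (median 1545) against 165 to 268 CPM (median 242). Cd47 was at 266 to 416 CPM (median 312) against 133 to 176 CPM (median 143). All 25 lysosomal genes tested were called higher in microglia (median log2 2.56). Gpnmb, a glycoprotein of lipid-laden and stressed macrophages, was at 7232 to 12926 CPM (median 12585) against 121 to 455 CPM (median 187). The protease Ctss was at 1028 to 1668 CPM (median 1334) against at most 88.9 CPM, and the protease Lgmn at 2459.8 to 3799.8 CPM (median 2895) against 132 to 274 CPM (median 217).

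Complement genes were found on both sides. Of 24 tested, 15 were called higher and 7 lower in microglia (median log2 2.43), beside 38.2% and 40.3% of all genes. C1qa, a chain of the recognition protein C1q, was at 1323 to 2156 CPM (median 1643) in microglia and 13.1 to 92.2 CPM (median 62.9) in astrocyte cultures (log2 5.23 ± 0.37). The proteases of the same complex were astrocytic, with C1s at 242 to 574 CPM (median 430.3) against 0.256 to 0.712 CPM (median 0.413) (log2 -9.43 ± 0.34) and C1r at 259 to 552 CPM (median 472) against 5.71 to 16.98 CPM (median 9.17) (log2 -5.03 ± 0.30). The chains of C1q and the proteases C1r and C1s were thus high in different cultures. C4a was at 46.5 to 126 CPM in astrocyte cultures and 2.82 to 4.77 CPM (median 3.39) in microglia. Masp1, a protease of the lectin pathway, was at 38.6 to 146 CPM (median 94.9) against 0.301 to 4.04 CPM (median 2.698). Cfd, factor D of the alternative pathway, was at 184 to 353 CPM (median 265) in microglia and 0.303 to 1.38 CPM (median 1.09) in astrocyte cultures. C3, the central component, overlapped between the cell types at 1443 to 3207 CPM (median 2567) and 267 to 2388 CPM (median 677), log2 difference 1.81 ± 0.47 (SE), adjusted p = 0.00252, with astrocyte libraries buffer 4 and H2O 4 highest among the cultures. Its receptor C3ar1 was microglial, at 386 to 795 CPM (median 447) against 2.502 to 18.4 CPM (median 8.38), as was Itgb2, the partner chain of Itgam, at 399.7 to 876 CPM (median 549) against 3.75 to 29.7 CPM (median 16.95).

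The classical class II genes were near the floor in both cell types, while other genes of antigen presentation and co-stimulation were higher in microglia. RT1-Da, RT1-Db1, RT1-Ba and RT1-Bb, which encode class II chains, were too low to test, at no more than 0.413 CPM in any microglial and 0.334 CPM in any astrocyte library. RT1-DOa and Ciita, the activator of class II genes, were not tested either, and these 6 were named after their values were seen. The 9 members of the list that were tested were all called higher in microglia (median log2 3.69). They were RT1-DMa, RT1-DMb, RT1-DOb, Cd74 and 5 co-stimulatory or checkpoint genes, including Cd86 at 39.1 to 55.4 CPM (median 45.5) against 0.417 to 4.18 CPM (median 1.86), Cd40 at 6.98 to 17.8 CPM (median 12.2) against 0.493 to 2.07 CPM (median 1.27) and Cd274, the inhibitory ligand PD-L1, at 32.7 to 92.9 CPM (median 77.3) against 1.35 to 2.802 CPM (median 1.91). Of 13 class I genes, 8 were called higher and 2 lower (median log2 0.43), and B2m, the light chain, was at 1876 to 2516 CPM (median 2266) against 760.2 to 975 CPM (median 915) (log2 1.73 ± 0.10). Pdia3, a chaperone of class I loading, was called higher under TMM (log2 0.38 ± 0.09) and stood at -0.05 without TMM. It was not called in the buffer libraries alone (adjusted p = 0.0674). RT1-DOb and Cd74 overlapped between the cell types. RT1 genes of the rat MHC are near-identical copies that share reads, and their values are uncertain. In the list of oxidative, nitric oxide and eicosanoid enzymes 13 of 17 were called higher and 2 lower (median log2 3.25). Ncf4, a subunit of the NADPH oxidase, was at 71.5 to 143 CPM (median 131) in microglia against 1.76 to 8.72 CPM (median 4.098) in astrocyte cultures. Hpgds, which makes prostaglandin D2, was at 123 to 279.5 CPM (median 156) against 0.796 to 9.195 CPM (median 4.33). The inducible enzymes were low without stimulation: Nos2 was at 0 to 1.34 CPM in microglia and 0 to 0.0912 CPM in astrocyte cultures, and Arg1 at most 0.164 and 0.222 CPM. Ptgs2 was at 0.526 to 2.22 CPM (median 1.44) and 1.398 to 10.04 CPM (median 4.33), where the call (adjusted p = 0.0278) was lost on leaving out microglial buffer 1, 2 or 3 or astrocyte buffer 1, each alone (adjusted p 0.0508 to 0.0636). It was also lost in the H2O libraries alone, at log2 -0.54 (adjusted p = 0.283), and with buffer and H2O summed by number (0.076).

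**Figure D5:**
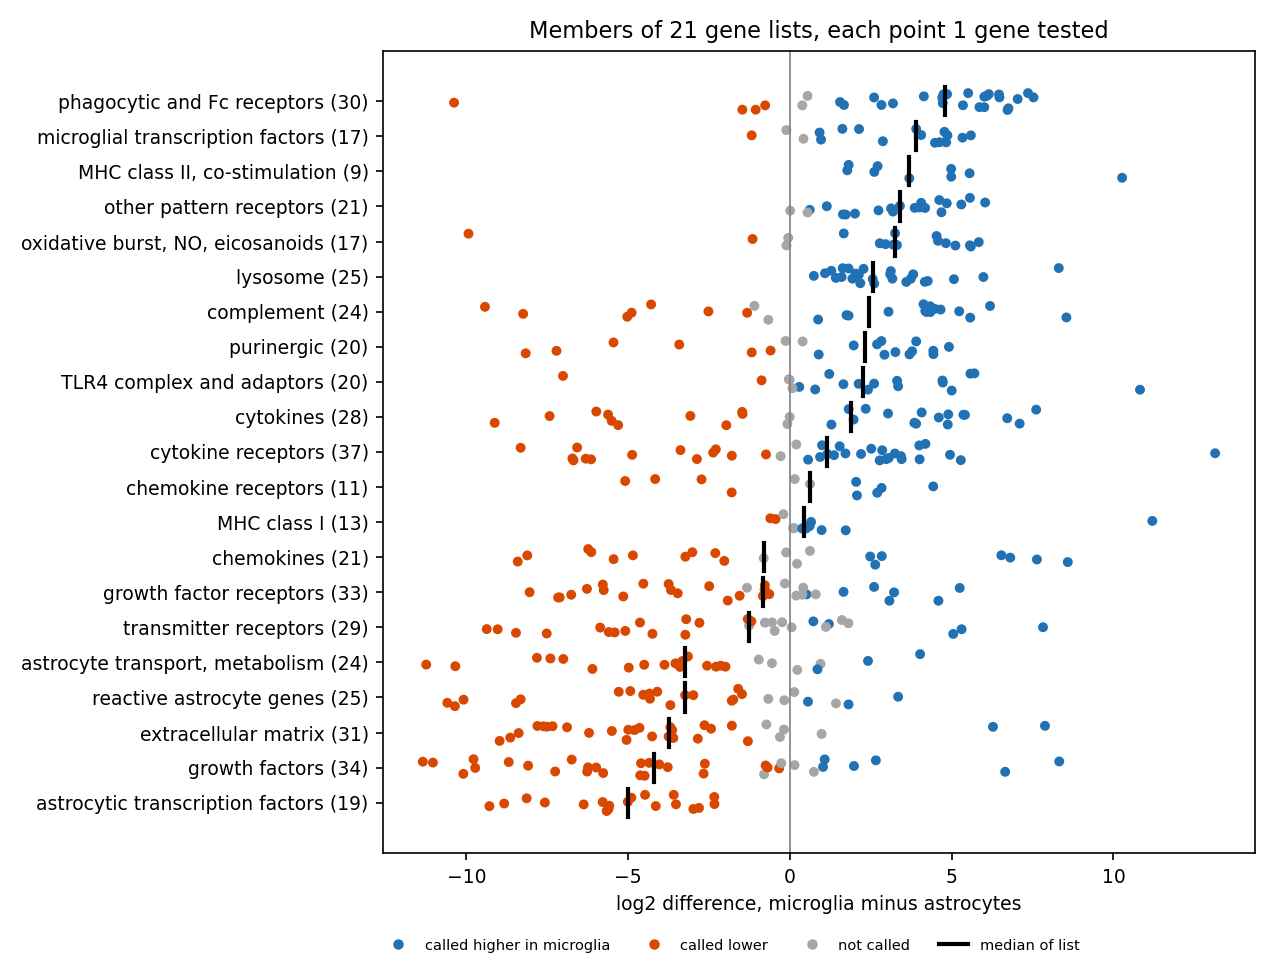
Log2 difference (microglia minus astrocytes) of each tested member of 21 gene lists, 1 point a gene, coloured by call, with the number tested in brackets and the median as a bar. Phagocytic, pattern receptor, class II with co-stimulation (9 of 15 shared members tested) and lysosomal lists lie to the right, and astrocytic transcription factors, growth factors and matrix to the left, against a median of -0.03 for all genes.

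Receptors for transmitters and nucleotides differed in both directions. Of 20 purinergic genes tested, 12 were called higher and 6 lower in microglia (median log2 2.33), beside 38.2% and 40.3% of all genes. P2ry12, which like P2ry13 is a receptor for ADP, was at 50.4 to 97.3 CPM (median 69.2) in microglia against 0.872 to 7.25 CPM (median 4.23) in astrocyte cultures. P2ry13 was at 27.5 to 63.4 CPM (median 43.3) and 0.644 to 4.85 CPM (median 3.39). Nt5e, the ectoenzyme CD73 that makes adenosine, was at 89.6 to 129 CPM (median 113) against 2.58 to 7.74 CPM (median 4.39). Of 29 transmitter receptors, 5 were called higher and 15 lower (median log2 -1.26). Htr2b, a serotonin receptor, was at 10.8 to 18.2 CPM (median 14.6) in microglia against 0.311 to 0.797 CPM (median 0.456) in astrocyte cultures. Gabbr2, a subunit of the GABA-B receptor, was at 88.5 to 173 CPM (median 123) against 0.376 to 1.32 CPM (median 0.578). The astrocytic set included Grm5, a metabotropic glutamate receptor, at 15.2 to 79.4 CPM (median 30.02) against 0 to 1.69 CPM (median 0.588). Ednra, an endothelin receptor, was at 33.02 to 84.7 CPM (median 56.7) against 0 to 0.163 CPM (median 0.101). Among 24 genes of astrocyte transport and metabolism, 17 were called lower and 3 higher in microglia (median log2 -3.24). Maob, which breaks down monoamines, was at 33.9 to 90.2 CPM (median 65.2) in astrocyte cultures and 0 to 0.152 CPM (median 0.0128) in microglia. The 3 called higher were Car2, Slc6a6 and Glud1. Car2, carbonic anhydrase 2, was at 9.74 to 38.9 CPM (median 19.3) against 0.341 to 2.98 CPM (median 1.82). Slc6a6, the taurine transporter, was at 314 to 836 CPM (median 758) against 109 to 265 CPM (median 156). Glud1, glutamate dehydrogenase, was at 361 to 395 CPM (median 383) against 243 to 311 CPM (median 293).

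Most growth factor and matrix genes tested were higher in astrocyte cultures. Of 34 growth factors tested, 24 were called lower and 6 higher in microglia (median log2 -4.19). Bmp6 was at 176 to 381 CPM (median 285) in astrocyte cultures and 0 to 0.1902 CPM (median 0.05997) in microglia. The synapse-organising glypican Gpc4 was at 219.8 to 550.3 CPM (median 370.3) against 0.0409 to 0.192 CPM (median 0.132). Thbs1, thrombospondin 1, was at 1143 to 6848 CPM (median 4379) against 0.677 to 4.03 CPM (median 2.301), lowest among the cultures in buffer 4 and H2O 4. Vegfa was at 32.98 to 56.97 CPM (median 42.6) against 2.27 to 10.4 CPM (median 5.44) and Hbegf at 76.5 to 109 CPM (median 105) against 2.89 to 4.27 CPM (median 3.52). Of 33 growth factor receptors, 20 were called lower and 7 higher (median log2 -0.83): Fgfr3 and Ntrk2 were at 364 to 737 CPM (median 559) and 764 to 1821 CPM (median 959) in astrocyte cultures. Tgfbr1, 1 of the 2 receptor chains for TGF-beta, was at 345 to 679 CPM (median 501) in microglia against 56.97 to 98.2 CPM (median 78.6) in astrocyte cultures. Tgfbr2 was at 269.8 to 538 CPM (median 476) and 51.1 to 87.4 CPM (median 63.6). Of 31 matrix and protease genes, 25 were called lower and 2 higher in microglia (median log2 -3.75), with Timp3 at 194 to 487 CPM (median 325) against 0 to 0.9397 CPM (median 0.6204) and Mmp9, a gelatinase, at 3.43 to 197 CPM (median 17.98) in microglia against 0.639 to 1.47 CPM (median 1.14). Of 25 genes known from reactive astrocytes, 18 were called lower and 3 higher in microglia (median log2 -3.24). Aspg was at 35.5 to 73.2 CPM (median 49.02), S1pr3, a receptor of sphingosine phosphate, at 239 to 542 CPM (median 434) and Hspb1, a heat shock protein, at 404 to 1083 CPM (median 761) in astrocyte cultures without any stimulus, against at most 0.0791, 0.712 and 2.27 CPM in microglia. Lcn2, a secreted lipocalin of strongly reactive astrocytes, ranged from 2.20 to 57.2 CPM (median 7.92) in astrocyte cultures and was 0.102 to 0.6303 CPM (median 0.355) in microglia. The fibroblast and mural cell markers given above, 3165 to 12391 CPM in sum, were in the same cultures, and their part in the matrix and growth factor levels was not tested.

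The buffer and H2O libraries gave similar counts. In the buffer libraries alone 4348 genes were called higher and 4731 lower in microglia, and in the H2O libraries alone 4284 and 4870. A test of the difference between these contrasts, buffer minus H2O, called 32 genes (0.249%), 24 with a larger microglial level relative to astrocytes in buffer and 8 with a smaller one, with 2118 genes at an unadjusted p under 0.05. Gfap was among them, and its microglial level was 20.1, 24.7 and 44.2 CPM in buffer and 0.164, 0.791 and 1.18 CPM in H2O, while astrocyte cultures held 5499 to 6906 and 3144 to 6864 CPM (log2 4.88 ± 0.65, adjusted p = 0.0264). Tnfrsf19, a TNF receptor family member of astrocytes, differed by log2 5.33 ± 0.92 (adjusted p = 0.0496). Summed astrocyte markers were 537 to 830 CPM in the buffer microglia and 137, 159 and 699 CPM in the H2O microglia, and oligodendrocyte lineage markers 716 to 754 CPM and 254, 317 and 408 CPM. The precursor receptor Pdgfra was at 62.5 to 128 CPM in buffer microglia, at 0.987 and 0.923 CPM in H2O 1 and 2 and at 48.6 CPM in H2O 3. The number of genes called was not stable: it was 0 to 22 on leaving out any 1 library other than microglial H2O 3, and 1795 without that library. Microglial H2O 1 and 2 were also both left out, a choice made after seeing that they stood apart. Only H2O 3 then stood for the H2O microglia, so calls from that fit cannot be read. Vehicle and library set cannot be told apart in these data.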

How the data were processed

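RNA from unstimulated rat microglia (6 libraries) and astrocyte cultures (8 libraries) was sequenced after mRNA capture from 150 ng of total RNA. The authors deposited raw read counts per gene. The submitters' processing notes list HISAT2 and StringTie 1.3.3b as tools and mRatBN7.2 as the build. No label gives the counting step, its strand setting or the annotation release. Tables were joined by gene symbol. Genes were filtered by edgeR's filterByExpr (by cell type), scaled by TMM and tested with edgeR 4.0.16 (limma 3.58.1, R 4.3.3) quasi-likelihood tests on cell type alone, with Benjamini-Hochberg adjustment; the fit was tested on simulated data. Overlap of libraries was judged on log2 CPM with a prior count of 2. Nothing in the labels says that libraries came from separate cultures, so p-values may measure technical spread. No 2 libraries of a group held the same counts. DESeq2 1.42.0, other scalings, no filter, single vehicle sets, a replicate block and each library left out were alternatives. Same-numbered astrocyte libraries of the buffer and H2O sets deviated together (r 0.25 to 0.81), while microglia did not in every pair (r -0.15 to 0.37). The main test counted all 8 astrocyte libraries as independent, so its standard errors may be too small. With buffer and H2O summed by number, 4819 of 13499 genes were called higher and 5274 lower in microglia. The genes named were the 10 largest non-overlapping differences in each direction at a mean of at least 50 CPM, up to 4 of each list in each direction at 5 CPM or more, all ligand and receptor pair members and a panel given whatever its result; others were named after their values were seen. Members, lists and tests were chosen with earlier results of these data known. Some genes that these rules name are not reported here.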

Additional observations from a re-analysis of the deposited data

Results flagged for a closer look

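In 33 of 418 sets of 6 microglial or 8 astrocyte values, 1 library lay apart from the others by its gap over the range of the set, where chance gives about 1 in 20. Many were genes of very few counts. Among microglia, buffer 3 was apart and high for Aif1 (1139 CPM) and Il1b (525 CPM) and low for Slc6a6 (314 CPM), Tlr4 (48.5 CPM), Stat6 (165.8 CPM) and Il10rb (23.0 CPM). H2O 1 was high for Ccl2 (82.2 CPM) and Siglec1 (315.6 CPM). H2O 2 was high for Myd88 (190.2 CPM) and the summed endothelial markers (113.8 CPM). H2O 3 was high for C1r (17.0 CPM) and Cgas (8.72 CPM) and low for Ncf4 (71.5 CPM). Buffer 2 was high for the few counts of Aldh1a1 (0.152 CPM), Maob (0.152 CPM) and Cldn19 (0.0380 CPM).

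Among astrocyte cultures, buffer 1 was high for Mrc1 (31.3 CPM), Ebi3 (2.99 CPM), Ccl9 (1.66 CPM), Tfec (2.44 CPM), Stat6 (0.148 CPM), Myrf (18.2 CPM), Ptgs2 (10.04 CPM) and Gja1 (449.8 CPM) and low for Ier3ip1 (53.1 CPM). H2O 4 was high for Fabp4 (0.445 CPM) and Osm (1.33 CPM), H2O 2 for Gtf2f1 (0.240 CPM) and Tmem119 (39.3 CPM), and H2O 1 for Tab1 (0.188 CPM). The class II genes with 1 high astrocyte library were RT1-Ba in H2O 4 (0.178 CPM), RT1-DOb in buffer 3 (0.629 CPM) and RT1-Db1 in buffer 4 (0.0912 CPM).

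The cell type difference itself differed between the buffer and H2O sets for Gfap (log2 4.88), Tnfrsf19 (log2 5.33) and Impa1, an inositol monophosphatase (log2 -4.57), by the edgeR interaction test. None of these was called with microglial H2O 1 and 2 left out together.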

How the results depend on the processing

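Which cells a transcript came from, the gene table and the days in culture limit every value, and low genes are limited by depth. Without TMM 3156 genes were called higher in microglia in place of 4912. Counts stayed within 1.5 times in every other setting run: leaving out single libraries gave 4692 to 5028 genes higher and 5015 to 5368 lower, and leaving out microglial H2O 1 and 2 together, chosen after seeing the data, gave 4903 and 5263. With the replicate number as a block, 4888 were higher and 5198 lower; same-numbered libraries of different cell types did not all deviate together, so the number is no pairing between them. Among named genes the block ended the call of Pdgfb alone (adjusted p = 0.0757). The buffer minus H2O difference of the cell type contrast called 32 genes, 148 under the replicate block, 12 without a filter, 0 without microglial H2O 1 and 2 (857 at an unadjusted p under 0.05), and 0 to 1795 on leaving out single libraries; the cause was not tested. Pdia3 turned to -0.049 without TMM. Of the named genes' settings 6129 kept direction and call, 18 lost the call and 12 gained it.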

Other observations

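Lipid handling, proliferation and inflammatory regulation were not described above. Of 23 cholesterol and lipid genes tested, 10 were called higher and 7 lower in microglia (median log2 0.12), beside 38.2% and 40.3% of all genes. The summed level was 39026 to 58785 CPM in microglia against 2017 to 3312 CPM in astrocyte cultures. Apoe, the main lipid carrier of the brain, held much of this at 33029 to 52493 CPM (median 43949) in microglia and 661 to 1902 CPM (median 1394) in astrocyte cultures (log2 5.47 ± 0.28). Of 27 cell cycle genes tested, 18 were called lower and 1 higher in microglia (median log2 -0.86), with sums of 1057 to 2098 CPM and 3168 to 6862 CPM.

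Of 23 genes of the NF-kB module, 17 were called higher and 1 lower in microglia (median log2 1.16). Of 31 interferon-stimulated genes tested, 10 were higher and 12 lower (median log2 0.05), with sums of 928 to 1728 CPM in microglia and 1789 to 2805 CPM in astrocyte cultures. The median over all genes was -0.03, with 38.2% called higher and 40.3% lower, so the interferon list as a whole lay near the background.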
